A study of Mus musculus with 6 samples.

Results

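In mouse tumours with and without irinotecan treatment, 10 inflammatory signal genes are described: the cytokine genes Il1a, Il1b, Il6, Il11, Tnf and Csf3 and the chemokine genes Cxcl1, Cxcl2, Cxcl3 and Cxcl5. They were taken by gene symbol from the deposited table, in which all 10 were found among 25251 genes. The tumours grew under the skin of BALB/c mice from CT26, a colon carcinoma cell line, with the genotype given as WT, and RNA was sequenced in bulk. One group of 3 libraries came from mice given CPT-11 (irinotecan, a prodrug of a topoisomerase I inhibitor) at 25 mg/kg into the peritoneum every 4 days, starting from tumours of 100 mm3, and the other 3 libraries came from solvent-treated mice, called controls below. When the tumours were taken after dosing is not stated in the sources used here. The series' design text speaks of duplicates, whereas the labels give 3 libraries per group. Separate animals are not stated for the libraries, so p-values measure the spread between libraries, which may be partly technical.

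IL-1 alpha and IL-1 beta, encoded by Il1a and Il1b, act on the same receptor and, like TNF, switch on genes through the transcription factor NF-kappaB. Among these target genes are Il6, Csf3, which encodes the granulocyte growth factor G-CSF, and the CXC chemokines with an ELR motif. Those chemokines draw neutrophils through the receptor CXCR2. IL-6 and IL-11 each use a receptor chain of their own together with the shared signal chain gp130, and in tumours these signals come from cancer cells, fibroblasts and myeloid cells.

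Values are normalized counts, that is, reads per gene divided by 1 factor per library. Recovered reads ranged from 13940650 to 15656894 per library. Irinotecan replicate 1 stood apart: it had reads for 19040 genes, against 20571 to 21426 in the other 5 libraries, and its summed macrophage and monocyte markers were 14576 normalized counts against 28241 to 32597. Of the epithelial markers, Krt20 had 1608 to 2098 normalized counts and Krt18 had 46.2 to 142 over the 6 libraries, while Epcam was at 0 in all but irinotecan replicate 2, where it had 2.89. In a bulk tumour sample, fewer cells of a type and less RNA per cell cannot be told apart. Whether the values of irinotecan replicate 1 reflect the tumour or the quality of the library was not tested.

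Il1b had the highest level of the 10 genes, and it lay lower with irinotecan by the smallest unadjusted p of the 9 genes tested. Control replicates 1, 2 and 3 had 332, 493 and 704 normalized counts, and irinotecan replicates 1, 2 and 3 had 120.1, 277 and 230.1; values below are in this order. Every irinotecan library lay below every control, and control replicate 3 was the highest of the 6. The means were 509.8 ± 187 and 209.2 ± 80.7 (SD, n = 3 each), which is 59.0% lower. The log2 fold change was -1.30 (SE 0.362), on the scale of log2(normalized count + 1). The unadjusted p from limma was 0.00661, and the adjusted p over 14639 genes was 0.743, so Il1b was not called. On GRCm38 Il1b lies on chromosome 2 from 129364570 to 129371139, on the minus strand.

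Il1a, the neighbouring gene on chromosome 2 (129299610 to 129309972, minus strand), encodes the IL-1 form that cells also hold as a precursor and release when damaged. It had 25.2, 27.2 and 62.0 normalized counts in control tumours, against 12.3, 21.2 and 22.3 after treatment. The groups did not overlap, and control replicate 3 was again highest. These values rest on 26 to 64 reads per control library and 12 to 22 per irinotecan library. The log2 fold change was -0.92 (SE 0.466; limma adjusted p = 0.743), and it was -0.52 without control replicate 3.

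Il6 (chromosome 5, 30013114 to 30019981, plus strand) encodes the acute-phase cytokine IL-6 and was among the genes with few reads. Control tumours had 10.3, 22.0 and 37.8 normalized counts, against 11.3, 11.6 and 17.2 after treatment. The lowest value of all was in control replicate 1, so the groups overlapped. This gave a log2 fold change of -0.61 (SE 0.541; limma adjusted p = 0.762), with -0.19 without control replicate 3 and -1.08 without control replicate 1.

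Il11 (chromosome 7, 4772373 to 4782857, minus strand), which encodes a cytokine linked to fibrosis and epithelial growth, had 243, 204.9 and 206.2 normalized counts in the controls. With irinotecan it had 122.2, 204.2 and 173.3. The groups were separate only by the small gap between 204.2 and 204.9. Its log2 fold change was -0.41 (SE 0.229; limma adjusted p = 0.743). It was -0.21 without irinotecan replicate 1, -0.24 with estimated library weights and -0.22 once a trend on GC content and gene length had been removed.

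Tnf (chromosome 17, 35199381 to 35202007, minus strand), the gene of tumour necrosis factor, gave the smallest difference of the 9 tested genes. It had 45.8, 42.9 and 47.4 normalized counts in control tumours, against 23.6, 64.5 and 40.5 after treatment. Both the highest and the lowest library were irinotecan libraries. The groups differed by a log2 fold change of -0.19 (SE 0.391; limma adjusted p = 0.884), and its sign turned to 0.17 without irinotecan replicate 1. Without irinotecan replicate 2 it was -0.54, and after the GC and length correction -0.05.

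Csf3 (chromosome 11, 98701263 to 98703629, plus strand), the G-CSF gene, was close to the detection limit. Control replicates 1, 2 and 3 held 2, 5 and 1 reads, and all 3 irinotecan libraries held 0. A count of 0 allows up to 3 reads in a library, and the reads of 2 of the 3 controls are at or under that limit, so no fold is given. Csf3 was left out of the test because its mean normalized count was under 10. Each of the other 9 genes had a mean above 10 in both groups, the lowest being 13.4 for Il6 with irinotecan.

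**Figure D1:**
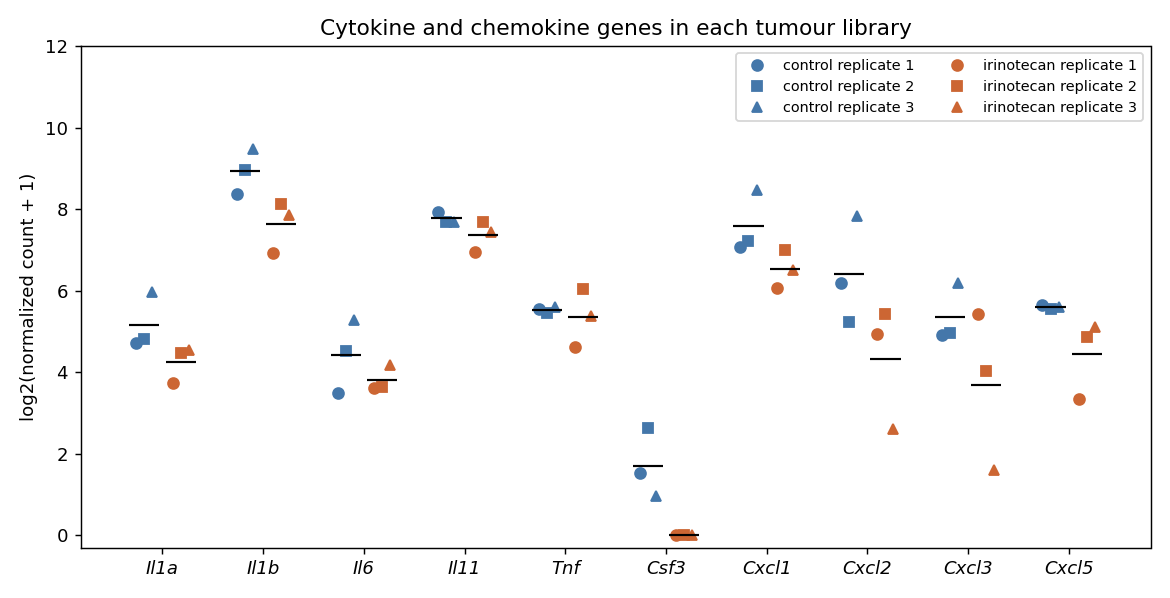
Level of each gene in each library on the log2(normalized count + 1) scale, with controls in blue, irinotecan in orange, 1 marker shape per replicate and a bar at the mean of each group's 3 log2 values. Il1a, Il1b, Il11, Csf3, Cxcl1 and Cxcl5 have every irinotecan library below every control, while Il6, Tnf, Cxcl2 and Cxcl3 overlap. Csf3 is close to the detection limit, with 2, 5 and 1 reads in the controls and 0 in each irinotecan library.

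The 4 chemokine genes lie in a cluster on chromosome 5, all on the plus strand, from Cxcl5 (90759360 to 90761624) and Cxcl3 (90786103 to 90789600) to Cxcl1 (90891241 to 90893115) and Cxcl2 (90903871 to 90905938). Their products carry the ELR motif and attract neutrophils. Cxcl1 and Cxcl5 separated the groups and Cxcl2 and Cxcl3 did not, although Cxcl2 had the largest log2 fold change of the 9 tested genes with all 6 libraries. That order did not hold without irinotecan replicate 1 (Cxcl3 -2.54, Cxcl2 -2.40), with library weights (-2.22 and -2.13) or without irinotecan replicate 3, where Cxcl5 (-1.50) and Il1b (-1.41) exceeded Cxcl2 (-1.22).

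Cxcl1 had 133.7, 148.5 and 351 normalized counts in control tumours, against 65.7, 127.1 and 90.2 after treatment. Its control mean was 211 ± 122 against 94.4 ± 30.9, a log2 fold change of -1.06 (SE 0.402; limma unadjusted p = 0.0284, adjusted p = 0.743). Without control replicate 3, whose value was more than that of any other library, the log2 fold change was -0.62.

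Cxcl5 had 49.5, 46.0 and 47.4 normalized counts in the controls, a spread far narrower than that of Cxcl1. With irinotecan it had 9.24, 27.9 and 33.4. Cxcl5 thus had a log2 fold change of -1.17 (SE 0.483; limma unadjusted p = 0.0411, adjusted p = 0.743). Irinotecan replicate 1 held 9 reads of this gene, and the value was -0.62 without that library and -0.71 with library weights.

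Cxcl2 had 72.0, 36.6 and 226 normalized counts in control tumours, against 29.8, 42.4 and 5.07 after treatment. The range over the 6 libraries was 44.5-fold, and irinotecan replicate 2 lay above control replicate 2. For Cxcl2 the log2 fold change was -2.09 (SE 0.846; limma unadjusted p = 0.0376, adjusted p = 0.743). It was -1.38 without control replicate 3 and -1.22 without irinotecan replicate 3, the library with 5 reads.

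Cxcl3 had 29.0, 30.3 and 71.7 normalized counts in control tumours, against 42.1, 15.4 and 2.03 after treatment. Irinotecan replicate 1 lay above control replicates 1 and 2 here, unlike in the other chemokine genes. For Cxcl3 the log2 fold change was -1.66 (SE 0.895; limma adjusted p = 0.743). It ranged from -2.54 without irinotecan replicate 1 to -0.62 without irinotecan replicate 3, which held 2 reads, and was -1.0 with a pseudocount of 10. DESeq2 on the recovered reads gave -1.14. Of the 2159 stretches of 50 bases in annotated Cxcl2 transcripts, 126 also occur in Cxcl3 transcripts (5.84%), so some reads may not separate these paralogs. Cxcl1 shares no such stretch with another gene.

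The sequence before the start of Cxcl1, Cxcl2 and Cxcl3 is shown because these neighbouring paralogs share a stretch that matches the kappaB element bound by NF-kappaB. All were highest in control replicate 3, as were Il1a, Il1b and Il6. The 120 bases before the RefSeq start are given 5′ to 3′ (RefSeq, GRCm38.p6, plus strand), with Il6 for comparison. Capitals mark matches to GGNNTTTCC, a short form of the kappaB element, on either strand.
Cxcl1, chr5:90891125-90891244: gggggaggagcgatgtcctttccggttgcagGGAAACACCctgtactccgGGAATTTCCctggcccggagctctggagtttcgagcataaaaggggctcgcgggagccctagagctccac
Cxcl2, chr5:90903779-90903898: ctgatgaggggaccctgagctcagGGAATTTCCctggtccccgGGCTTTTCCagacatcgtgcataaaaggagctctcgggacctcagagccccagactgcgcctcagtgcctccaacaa
Cxcl3, chr5:90785981-90786100: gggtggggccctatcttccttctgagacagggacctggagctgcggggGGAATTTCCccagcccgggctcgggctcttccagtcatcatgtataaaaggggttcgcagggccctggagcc
Il6, chr5:30012994-30013113: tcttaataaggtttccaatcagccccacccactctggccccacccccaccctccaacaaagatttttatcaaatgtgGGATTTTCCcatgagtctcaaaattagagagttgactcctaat

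The longest stretch that the 3 chemokine windows have in common is GGGAATTTCCC, of 11 bases. It begins 71 bases before the start of Cxcl1, 97 before that of Cxcl2 and 73 before that of Cxcl3. Of 32851 RefSeq windows of 250 bases before a start, 14 hold it on either strand (0.0426%); since it was read off these 3 genes, their matches are no test. The looser GGNNTTTCC, which lies inside it, was found in 4 of the 8 members with a window and in 4.93% of all windows. Cxcl1 and Cxcl2 hold it at 2 places each, Cxcl3 at 1, and Il6 at 1, 43 bases before its start. Both other motifs were searched on either strand in the same windows. TGANTCA, the core of AP-1 sites, was found in Il1a, in Il6 and at the second annotated start of Il11, and in 6.75% of all windows, and TATAAA was found in Il1a, Il1b, Tnf and Cxcl3 and in 12.4%. A match is a string of letters and not a shown binding site. Cxcl2, Cxcl3 and Il6, whose groups overlapped, hold the looser motif just as Cxcl1 does, whose groups did not. Il1a and Il1b, also highest in control replicate 3, hold no match to the looser motif. No test related a motif to a difference in level. Cxcl5 and Csf3 were not matched in the promoter table.

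Levels of different genes were compared per kilobase of the deposited gene length. In the controls the order was Il1b (267 ± 97.8 normalized counts per kb), Cxcl1 (112.6 ± 64.9), Il11 (108.4 ± 10.8), Cxcl2 (53.9 ± 48.6), Tnf (27.7 ± 1.42), Cxcl5 (25.6 ± 0.957), Il1a (19.3 ± 10.5), Cxcl3 (12.5 ± 6.94), Il6 (9.61 ± 5.68) and Csf3 (1.90 ± 1.59). Each neighbouring pair in that order overlapped in its range over the 3 controls, except Il6 and Csf3. With irinotecan the order began with Il1b (109.7 ± 42.3), Il11 (82.8 ± 20.6) and Cxcl1 (50.3 ± 16.5), followed by Tnf (26.2 ± 12.5), Cxcl5 (12.6 ± 6.81) and Cxcl2 (12.4 ± 9.18). Il11 thus stood above Cxcl1 and Tnf above Cxcl2 with irinotecan, but the ranges of those pairs overlapped in both groups.

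Over the 9 tested genes, all 9 log2 fold changes were negative, with a median of -1.06. Over all 14639 genes tested, 51.8% were negative and the median was -0.01. The median of the 9 was -0.66 without irinotecan replicate 1 and -0.62 without control replicate 3. In 5 of the 9 (Il1a, Il1b, Il11, Cxcl1 and Cxcl5) the irinotecan libraries all lay below the controls, which was so for 7.89% of all genes tested. Without irinotecan replicate 1 it was so for 6 of the 9, Cxcl3 added, against 13.7% of all genes. An unadjusted p under 0.05 with a lower value was found for Il1b, Cxcl1, Cxcl2 and Cxcl5, that is, for 4 of the 9 and for 3.08% of all genes. All 9 genes were measured in the same libraries, so the counts are not independent of each other.

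None of the 9 was called by limma at an adjusted p under 0.05, and neither was any other gene (0% of 14639), while 393 genes had an unadjusted p under 0.05 with a higher and 451 with a lower value. edgeR and limma-voom on the recovered reads also called 0%, with Il1b at adjusted p = 0.775 and 0.732. DESeq2 on the recovered reads called 0.157% of genes lower and no member, with Il1b at adjusted p = 0.0842. In the authors' deposited table, of all genes 0.0752% have an adjusted p under 0.05 and a lower value, and none of the 10 genes is among them. There Il1b has a log2 fold change of -1.28 and an adjusted p of 0.0549, and Cxcl2 has -2.11 and 0.240. DESeq2 without irinotecan replicate 1, a setting added after the data were seen, called 0.567% of genes lower, and Il1b was one of them (log2 fold change -1.01, adjusted p = 0.0104). That setting called 0.533% of genes higher. limma with estimated library weights called 0.355% of genes in either direction and no member. In the gene lists below, a count called refers to limma with all 6 libraries at equal weight, and calls under these other settings are named beside it.

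**Figure D2:**
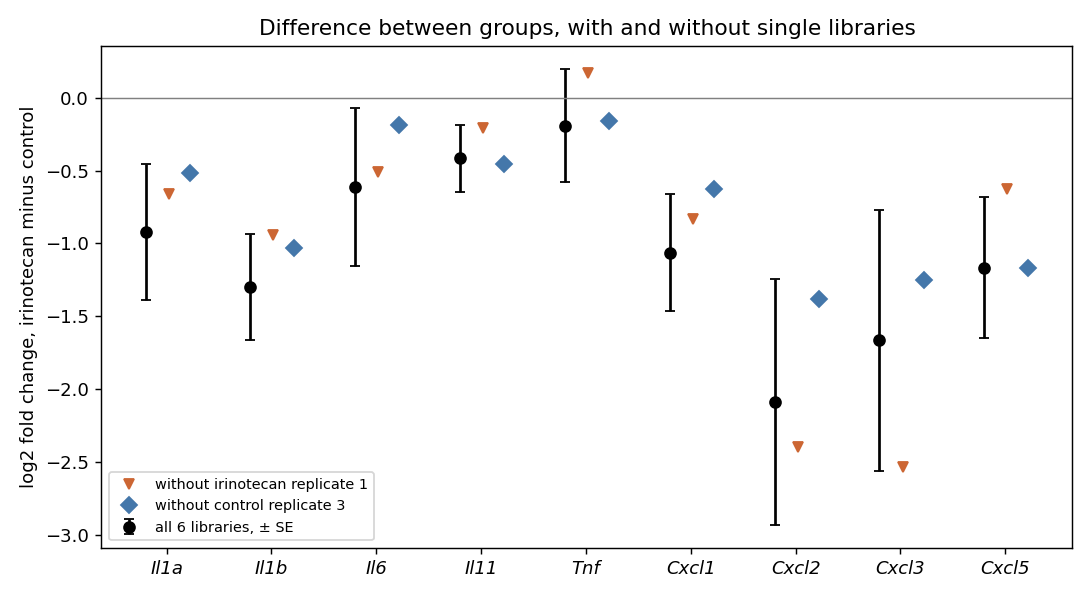
Log2 fold change, irinotecan minus control, of the 9 tested genes with all 6 libraries (black, bars ± SE), without irinotecan replicate 1 (orange) and without control replicate 3 (blue). Cxcl3 moves from -1.66 to -2.54 and Cxcl5 from -1.17 to -0.62 without irinotecan replicate 1, and Tnf crosses 0.

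The high and low values came mostly from the same libraries. Control replicate 3 was the highest library for 6 of the 10 genes (Il1a, Il1b, Il6, Cxcl1, Cxcl2 and Cxcl3), and irinotecan replicate 1 was the lowest, tied for Csf3, for 7. The median log2 deviation of the 9 tested genes from the control mean was -0.45, -0.08 and 0.81 in control tumours, against -1.43, -0.75 and -0.63 after treatment. The closest pattern over the 6 libraries was between Il1a and Cxcl1, with a root mean square difference of 0.18 in log2 values centred on each gene's mean. Il11 and Tnf followed with 0.24 and Il1b and Cxcl1 with 0.28, whereas Cxcl2 and Cxcl3 stood apart from the rest, at 0.74 from each other and at least 1.09 from any other member. Irinotecan replicate 3 held 5 reads of Cxcl2 and 2 of Cxcl3, so these distances rest in part on values close to the detection limit.

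The receptors for these ligands gave a different picture. Of 10 receptor genes listed, 9 were tested and 0 were called, 4 had a positive and 5 a negative log2 fold change, and the median was -0.03. Il1r1, the signalling IL-1 receptor, averaged 1918 ± 49.4 normalized counts in control tumours and 2096 ± 450 after treatment (SD, n = 3 each). The log2 fold change of 0.11 (SE 0.165) became -0.06 without irinotecan replicate 1. Its partner chain Il1rap had a log2 fold change of -0.26 (SE 0.220), or -0.50 without irinotecan replicate 1 and -0.093 without irinotecan replicate 3. Il6st, which encodes gp130, had 2666, 3212 and 2671 normalized counts in control tumours, against 5443, 2937 and 3516 after treatment (log2 fold change 0.43, SE 0.224). The highest Il6st value was in irinotecan replicate 1, and without it the log2 fold change was 0.18. Il6ra had a log2 fold change of 0.21 (SE 0.186), or 0.02 without that library. Il11ra1 was at -0.03 (SE 0.292), with its sign turning under 6 alternatives, Tnfrsf1a at -0.19 (SE 0.179; 0.03 after the GC and length correction) and Tnfrsf1b at 0.20 (SE 0.181; 0.36 after that correction). For these 7 receptor genes the groups overlapped.

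The receptors for G-CSF and the ELR chemokines, which are known for their presence on neutrophils, were the 2 of 9 tested receptor genes whose groups did not overlap. Of all 14639 genes tested, 7.89% had every irinotecan library below the controls and 978 genes had every one above. Csf3r had 166.4, 199.7 and 173.3 normalized counts in control tumours, against 42.1, 132.0 and 161.2 after treatment (log2 fold change -0.89, SE 0.454). Without irinotecan replicate 1 it was -0.30. Cxcr2 had 13.1, 14.6 and 47.4 against 1.03, 6.74 and 7.09, a log2 fold change of -2.13 (SE 0.769), or -1.12 with a pseudocount of 10. Irinotecan replicate 1 held 1 read of Cxcr2, and control replicate 3 was the highest library, as for 6 of the 10 ligands. For Cxcr2 the limma unadjusted p was 0.0232 and the adjusted p was 0.743.

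Among decoys, antagonists and brakes of the same pathways, 8 of 10 listed genes were tested, 7 were negative and 0 were called, with a median of -0.42. Il1rn encodes the IL-1 receptor antagonist, which occupies the receptor without a signal. It had 192.6, 202.8 and 387 normalized counts in control tumours, against 210.5, 276 and 107.4 after treatment. The groups overlapped (log2 fold change -0.42, SE 0.391), and the value was -0.10 without control replicate 3, -0.036 without irinotecan replicate 3 and -0.71 without irinotecan replicate 2. Nfkbia, the inhibitor of NF-kappaB that NF-kappaB itself induces, had 1026, 1280 and 1208 normalized counts against 717, 939 and 984 (log2 fold change -0.42, SE 0.168), or -0.28 without irinotecan replicate 1 and -0.21 after the GC and length correction. Socs3, which damps gp130 signals, had 1037, 840 and 997 against 389, 817 and 787 (-0.60, SE 0.277), or -0.25 without irinotecan replicate 1 and -0.21 after that correction. For both, the irinotecan libraries all lay below the controls. Sigirr, a negative regulator among the IL-1 receptors, was at -0.05 (SE 0.176), and its sign turned to 0.12 without irinotecan replicate 1.

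The log2 ratio of Il1b to Il1rn sets the agonist against its antagonist within a library. Control libraries had ratios of 0.78, 1.28 and 0.86, and treated ones had -0.80, 0.01 and 1.09. Irinotecan replicate 3 lay within the controls, and the other 2 lay below them. The means were 0.97 ± 0.267 and 0.10 ± 0.951 (SD, n = 3 each), a difference of -0.88 with p = 0.3 by a two-sided exact permutation test, in which 3 against 3 libraries cannot give less than 0.1. The difference was -0.43 without irinotecan replicate 1 (exact p = 0.5) and -1.37 without irinotecan replicate 3 (exact p = 0.1).

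**Figure D3:**
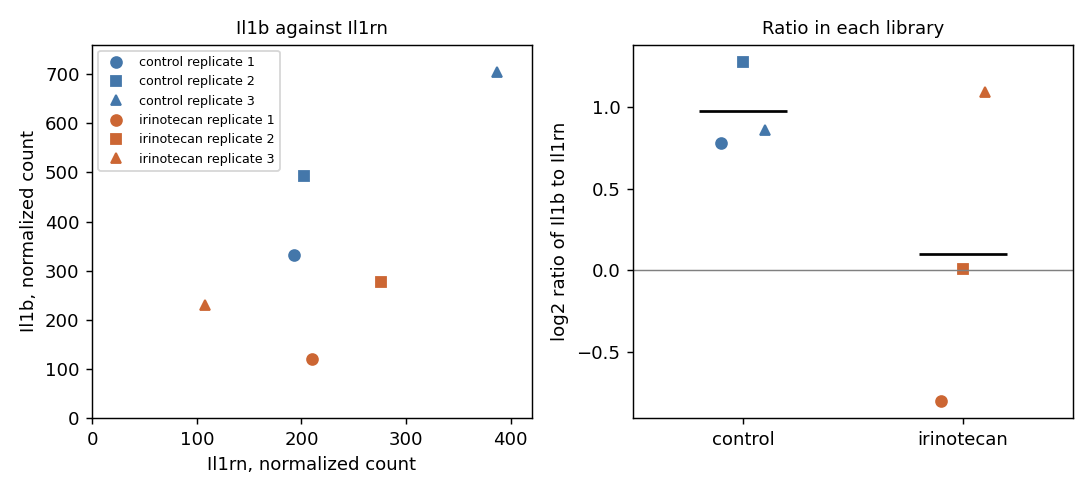
Left, Il1b against Il1rn in normalized counts, 1 point per library (blue controls, orange irinotecan, marker shape by replicate). Right, the log2 ratio of Il1b to Il1rn with a bar at each group mean; the controls lie from 0.78 to 1.28 and the irinotecan libraries from -0.80 to 1.09.

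IL-1 beta is made as a precursor that caspase-1 cuts inside the inflammasome. All 9 genes listed for this step were tested, 6 were negative, 0 were called and the median was -0.16. Nlrp3, which encodes the sensor of the best known inflammasome and is itself induced by NF-kappaB, had 148.6, 143.2 and 159.8 normalized counts in control tumours, against 81.1, 95.4 and 90.2 after treatment. The groups were far apart and narrow (log2 fold change -0.76, SE 0.198; limma unadjusted p = 0.00477, adjusted p = 0.743), and the value was -0.69 without irinotecan replicate 1. Casp1, the protease, had a log2 fold change of 0.16 (SE 0.138), and Aim2, a DNA sensor, of -0.14 (SE 0.171). Gsdmd, the pore through which mature IL-1 beta leaves, had 580, 618 and 606 against 627, 709 and 714 (0.18, SE 0.133; 0.35 after the GC and length correction), with every irinotecan library above the controls.

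Of the 13 genes between receptor and transcription, 6 were positive, 7 negative and 0 called, with a median of -0.01. Irak1, a kinase below the IL-1 receptor, was at -0.01 (SE 0.115), and Nfkb2, an NF-kappaB subunit, at -0.14 (SE 0.224), with both signs turning under some alternatives. The transcription factor gene Cebpb, a partner of NF-kappaB at Il6 and other cytokine genes, had 1581, 1270 and 1046 normalized counts in control tumours, against 302, 978 and 798 after treatment. The groups did not overlap (-1.05, SE 0.399), and the value was -0.54 without irinotecan replicate 1 and -0.39 after the GC and length correction. Nfkbiz, a coactivator of late NF-kappaB targets, had a log2 fold change of -0.29 (SE 0.146), also without overlap.

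Other genes that IL-1, TNF or IL-6 are known to induce had a median of -0.34 over 13 tested of 16 listed, 12 of them negative and 0 called. Lcn2, an iron-binding lipocalin also found in neutrophils, had 178.6, 306 and 374 normalized counts against 144.8, 103.1 and 68.9 (log2 fold change -1.43, SE 0.349; limma unadjusted p = 0.00318, adjusted p = 0.743). It was called by DESeq2 on the recovered reads (-1.44, adjusted p = 0.0262), by DESeq2 without irinotecan replicate 1 (adjusted p = 8.9e-06) and with library weights (adjusted p = 0.0348). Ptgs2, the inducible cyclooxygenase, had 4478, 3097 and 5433 against 5149, 2447 and 1582 (-0.64, SE 0.398), and was at -1.10 without irinotecan replicate 1 and -0.25 without irinotecan replicate 3. Sele (-0.35, SE 0.134) and Vcam1 (0.17, SE 0.168, or 0.034 after the GC and length correction), adhesion genes known from endothelium, differed in sign. Their control means were 2900 and 4622 normalized counts, and which cells held their RNA was not tested. Endothelial markers had a median of -0.65 over 8 tested genes, 7 of them negative and 0 called by limma, and -0.45 without irinotecan replicate 1. In 5 of the 8 the irinotecan libraries all lay below the controls, against 7.89% of all genes tested. DESeq2 without irinotecan replicate 1 called Cdh5 (-0.54, adjusted p = 0.0490), and it called 0.567% of all genes tested lower. The summed level of the endothelial markers was 2391 to 2763 normalized counts in the controls and 1508 to 2075 with irinotecan. Its part in the values of Sele and Vcam1 was not tested.

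CXC chemokine genes outside the 4 members did not share 1 direction. Of 9 tested, 3 were positive and 6 negative, 0 were called by limma and the median was -0.41. Ppbp, Pf4 and Cxcl15 of this list lie on chromosome 5 between Cxcl5 and Cxcl1, all on the plus strand. The 4 members are thus not the whole cluster. Ppbp had 15.9, 38.7 and 57.1 normalized counts in control tumours, against 29.8, 27.0 and 10.1 after treatment (-0.67, SE 0.585). Pf4 was at -0.96 (SE 0.339), the groups of both overlapped, and Cxcl15 was not tested. Cxcl11, induced by interferon, had 51.4, 38.7 and 49.4 normalized counts in control tumours, against 85.2, 92.5 and 99.3 after treatment (0.98, SE 0.249), with all irinotecan libraries above. Cxcl9 was at 0.44 (SE 0.508), or 1.08 without irinotecan replicate 1 and 0.082 without irinotecan replicate 3. Cxcl14 had 232, 225 and 247 against 22.6, 81.9 and 121.6 (-1.92, SE 0.531), or -1.22 without irinotecan replicate 1, and Cxcl16 was at -0.20 (SE 0.249), turning to 0.09 without that library. With library weights Cxcl14 (adjusted p = 0.0384) and Cxcl10 (0.97, adjusted p = 0.0375) were called, as were 0.355% of all genes tested. DESeq2 without irinotecan replicate 1 called Cxcl14 lower and Cxcl10 and Cxcl9 higher, with adjusted p of 0.000276, 0.000266 and 0.000796. That setting called 0.567% of all genes lower and 0.533% higher. Cxcl10, another interferon-induced chemokine gene, is named here because of these calls. It had 215, 254 and 179 normalized counts in control tumours, against 221, 394 and 487 after treatment, so the groups overlapped. With all 6 libraries its log2 fold change was 0.70 (SE 0.296), with a limma adjusted p of 0.743.

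Neutrophils are the cells these chemokines attract. Of 20 neutrophil markers listed, 17 were found and 11 tested, with 0 called by limma, 11 negative log2 fold changes and a median of -0.98. In 4 of the 11 the irinotecan libraries all lay below the controls, against 7.89% of all genes tested. Mmp8 had means of 30.4 normalized counts in the controls and 31.0 with irinotecan (log2 fold change -0.099). Csf3r and Cxcr2 are in this list too. S100a8, an abundant neutrophil protein gene, had 43.0, 30.3 and 100.7 normalized counts in control tumours, against 34.9, 15.4 and 18.2 after treatment, and its partner S100a9 had 67.3, 45.0 and 173.3 against 53.4, 16.4 and 23.3. Both were highest in control replicate 3, like Il1b, Cxcl1 and Cxcl2, and their groups overlapped. The summed level of the 17 was 1042 to 1372 normalized counts in the controls and 667 to 808 with irinotecan. Mmp9, a granule protease also made by other cells, had 330, 248 and 181.1 against 146.8, 111.7 and 115.5 (-0.98, SE 0.255), and Hdc had 72.0, 47.0 and 99.7 against 45.2, 21.2 and 30.4 (-1.15, SE 0.397). Fpr2 was at -0.33 (SE 0.311), with its sign turning in DESeq2 without irinotecan replicate 1. The granule genes of immature neutrophils, Camp, Ltf, Elane and Mpo, were at 0 to 12.2 normalized counts in every library. Mmp9 was called with library weights (adjusted p = 0.0375). DESeq2 without irinotecan replicate 1 called Mmp9 (adjusted p = 0.00305), S100a9 (-2.27, adjusted p = 0.00302) and Hdc (adjusted p = 0.0490). That setting, added after the data were seen, called 0.567% of all genes lower. The part of neutrophil number in the chemokine and Il1b values was not tested.

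Macrophage and monocyte markers, another source of Il1b and Tnf, had a median of -0.41 over 15 tested genes, of which 13 were negative and 0 called by limma. The median was -0.06 without irinotecan replicate 1. Their summed level was 30538 to 32597 normalized counts in the controls and 14576, 32428 and 28241 in irinotecan replicates 1, 2 and 3. Lyz2, the lysozyme of myeloid cells, was at -0.32 (SE 0.307) and turned to 0.08 without irinotecan replicate 1. Cd163 and Mrc1, receptors of scavenging macrophages, were at -1.11 (SE 0.204) and -0.74 (SE 0.180), with irinotecan below the controls in both. Cd163 was called by DESeq2 on the recovered reads (-1.13, adjusted p = 0.00184), by DESeq2 without irinotecan replicate 1 (adjusted p = 9.0e-05) and with library weights (adjusted p = 0.0180). Mrc1 was called by DESeq2 without irinotecan replicate 1 (-0.57, adjusted p = 0.00696). The part of macrophage number in the Il1b and Tnf values was not tested.

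The other marker lists held 0 genes called by limma. Mast cell markers had a median of -0.52 over 6 tested genes, or -0.07 without irinotecan replicate 1, fibroblast markers of -0.12 over 9 and T cell markers of 0.29 over 9. All 5 skeletal muscle markers were positive, with a median of 0.99 and a summed level of 23.0 to 312 normalized counts in the controls and 110 to 678 with irinotecan. Epithelial markers had a median of 0.06 over 4 tested genes, and 1 keratinocyte marker could be tested, at -0.23. DESeq2 without irinotecan replicate 1 called the epithelial marker Krt8 higher (1.16, adjusted p = 0.0143), as it did 0.533% of all genes tested. Krt8 had 50.5, 65.9 and 80.4 normalized counts in control tumours, against 37.0, 149.3 and 142.9 after treatment. The library left out thus lay below every control. With all 6 libraries the log2 fold change of Krt8 was 0.52 (SE 0.517), and that of Krt18 was -0.61 (SE 0.362). The part of these cell types in the cytokine and chemokine values was not tested.

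**Figure D4:**
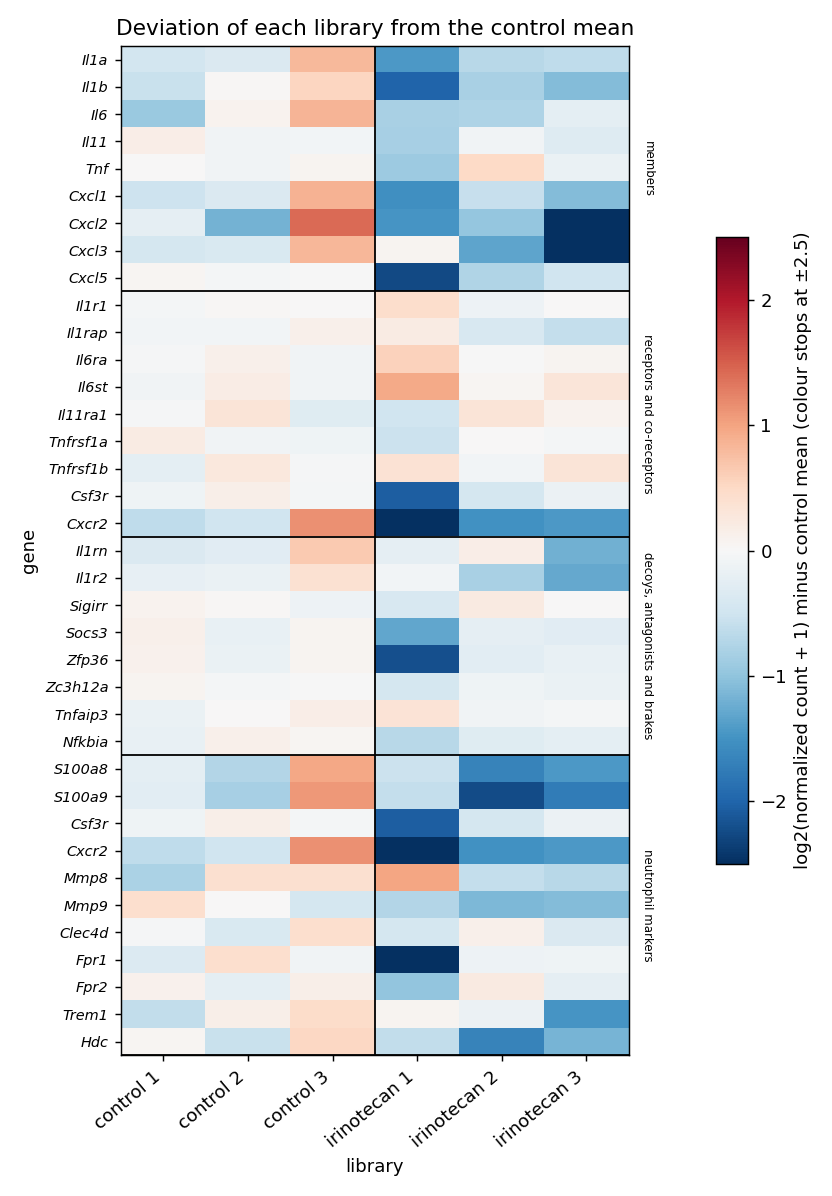
Log2(normalized count + 1) of each library minus the mean of the 3 controls, for the 9 tested cytokine and chemokine genes, their receptors, their brakes and neutrophil markers (Csf3r and Cxcr2 are shown in both lists); red is above and blue below the control mean. Irinotecan replicate 1 is lowest for Il1b, Cxcl1, Cxcl5, Csf3r and Cxcr2, while Cxcl2, Cxcl3 and Il1rn are lowest in irinotecan replicate 3.

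The genes most like Il1b over the 6 libraries, by root mean square difference of centred log2 values among 12472 other protein-coding genes, were Cyr61 (0.27), Hmox1 (0.27), Cxcl1 (0.28), Lipo3 (0.29) and Osm (0.30). Hmox1 encodes haem oxygenase and Osm the IL-6 family cytokine oncostatin M. Osm had 66.4, 61.7 and 104.6 normalized counts in control tumours, against 14.4, 59.7 and 37.5 after treatment. In that order Il1a had rank 7, Cxcl5 rank 61 and Cxcl2 rank 12093. The genes most like Cxcl1 were Hist1h2bg (0.18), Il1a (0.18), Il1b (0.28), Sh3tc2 (0.29) and Hmox1 (0.30). With 6 libraries, of which control replicate 3 and irinotecan replicate 1 lie at the ends, this likeness is a description of these libraries.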

How the data were processed

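RNA was measured by bulk sequencing in 6 tumour libraries, 3 per group. HISAT2 2.0.5, DESeq2 1.20.0, featureCounts 1.5.0-p3, fastp and CASAVA are named in the submitters' processing notes, and so are the builds mm10 and GRCm38. The sources used here give neither strand nor annotation release. The deposited per-library values are a signal in which the authors' gene counts were divided by 1 factor per library; 100% of values came out as whole reads at a tolerance of 1e-06. The deposited table also holds the authors' group means, log2 fold changes and p-values.

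The main test was limma 3.58.1 (trend, Benjamini-Hochberg) on log2(normalized count + 1) for 14639 genes with a mean of at least 10. On the recovered reads, edgeR 4.0.16 called 0 genes and DESeq2 1.42.0 called 53. Other alternatives were pseudocounts, no filter, quantile normalization, TMM, library weights, a GC and length trend, limma-voom and leaving out each library. Scripts were tested on simulated data. GC content came from GENCODE M21 transcripts. RefSeq promoters matched 8 of the 10 genes by symbol. A log2 fold change from the main test is on the log2(value + 1) scale, where the added 1 shrinks changes of low genes. Values from edgeR, DESeq2 and the authors' table are not on that scale. They can also be smaller, as for Cxcl3 (-1.66 in the main test, -1.14 with DESeq2 on the recovered reads).

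The genes and the lists were chosen with earlier results of these data known. Genes named are the 10 members, the receptor chains, Il1rn, and from each described list the 2 tested genes with the smallest unadjusted p and the 2 with the highest mean, plus the 5 genes most like Il1b and Cxcl1. S100a8, S100a9, the granule genes and the epithelial markers are named as markers, outside this rule. Lists of mast cell, fibroblast, endothelial, T cell, epithelial, keratinocyte and muscle markers are given by their counts and medians. Cxcl10, Cdh5, Mmp8, Krt8, Ppbp, Pf4 and Cxcl15 are named outside the rule, after their values were seen.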

Additional observations from a re-analysis of the deposited data

How the results depend on the processing

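Of the 9 tested genes, 8 kept a negative log2 fold change under all 18 alternatives, and Tnf turned positive under 3. The number of genes called over all genes tested was 0, but 52 with estimated library weights, 53 with DESeq2 on the recovered reads and 161 with DESeq2 without irinotecan replicate 1, a setting added after the data were seen; leaving out 1 library each gave 0 to 2, the 2 without irinotecan replicate 1. Among the 10 members 1 gene, Il1b, was called, with DESeq2 without irinotecan replicate 1 only, and leaving out 1 library each gave 0. Over the pathway lists 3 genes were called with library weights, 1 with DESeq2 and 4 with DESeq2 without irinotecan replicate 1, and 0 when 1 library each was left out. The cause of these differences was not tested.

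Signs turned as follows. With library weights: Tnf 0.17, Il1r1 -0.045, Il11ra1 0.19, Sigirr 0.10, Nfkb2 0.11, Cxcl16 0.032 and Lyz2 0.053. With the GC and length trend removed: Il11ra1 0.13, Tnfrsf1a 0.033, Sigirr 0.15, Nfkb2 0.10 and Irak1 0.12. With quantile normalization, Il11ra1 was 0.027. With DESeq2 without irinotecan replicate 1: Tnf 0.21, Il1r1 -0.060, Il11ra1 0.19, Sigirr 0.12, Nfkb2 0.13, Cxcl16 0.089, Fpr2 0.0034 and Lyz2 0.084. Leaving out 1 library each, the ranges were -0.54 to 0.17 for Tnf, -0.061 to 0.22 for Il1r1, -0.21 to 0.20 for Il11ra1, -0.20 to 0.12 for Sigirr, -0.28 to 0.13 for Nfkb2, -0.031 to 0.021 for Irak1, -0.40 to 0.088 for Cxcl16 and -0.59 to 0.076 for Lyz2. The cause was not tested.

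The ratio of Il1b to Il1rn ranged from -1.37 to -0.43 when 1 library each was left out. The labels number the replicates alike in both groups, but deviations of same-numbered libraries correlated at -0.114, -0.009 and -0.213. These values showed no pairing by number, but 3 libraries per group cannot settle whether the libraries were paired. With a replicate block, 0 genes and 0 members were called, and Il1b had an adjusted p of 0.689 in limma. The ratio's difference was then -0.88 with an exact p of 0.5, from sign changes within same-numbered pairs. The smallest p possible in that test is above the 0.1 of the test without blocks. Depth limits Csf3 (8 reads in all), Il6 and the low irinotecan values of Cxcl2, Cxcl3 and Cxcl5.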
